A study of Mus musculus with 6 samples.

Results

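Of 9 genes that carry out parts of the cellular response to low oxygen outside glycolysis, 8 rose in muscle satellite cells cultured with BAPN, an inhibitor of lysyl oxidases. The genes were Car9, Car12, Vegfa, Ndrg1, Bnip3, Bnip3l, Ankrd37, Kdm3a and Higd1a, taken by symbol from a table of 18864 gene symbols. All 9 were found there, and all 9 had a mean normalized count of at least 10 and were tested. Car9 rose from near the bottom of the 9 to a level 27.2-fold above control, and Car12 was the gene that was not called.

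The 6 RNA libraries came from satellite cells, which regenerate muscle fibres, taken from mouse gastrocnemius and placed in differentiation medium. Each of 3 libraries came from cells kept for 24 h in 0.25% BAPN (beta-aminopropionitrile, which blocks the enzymes that cross-link collagen and elastin), and each of 3 from cells without it. The labels mention no transgene or deletion and name the strain C56Bl/6 in the sample entries and C57Bl/6 in the series description. The mice were 8 weeks old by the sample entries and 6 weeks old by the growth protocol. The cells of both groups had been enriched by repeated plating that removes fibroblasts, grown on matrigel, a basement membrane extract, and differentiated in serum given as 4% horse serum in one source and 10% fetal calf serum in another. The series description calls the 3 replicates independent, and the comparison asks how cells respond when lysyl oxidase is inhibited.

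Total counts were between 17125602 and 18617656 with BAPN and between 18335559 and 18682099 without. Replicate 3 stood apart from replicates 1 and 2 in both groups along the second principal component, which held 16.5% of the variance. The first, with 67.1%, separated BAPN from control. Of 12 myogenic markers, 0 rose and 10 fell with BAPN, and their summed normalized count was 358776 to 440915 with BAPN and 687948 to 894441 without. Myh3 and Acta1, which had the most counts in that sum, had log2 fold changes of -1.43 and -0.97. Those not called were Pax7 and Myf5, at 0.23 and 0.04 (adjusted p = 0.44 and 0.93 in edgeR). Over all genes tested, 15.6% rose and 20.8% fell. Fibroblast markers summed to between 652 and 896 with BAPN and 1097 to 1171 without, with 0 of 7 tested higher and 4 lower. Macrophage markers summed to between 320 and 460 with BAPN and 184 to 284 without. Of 4 macrophage markers tested, Cd68 and Cd14 rose, Itgam fell and Lyz2, at 3 to 33 counts a library, was not called. Those not tested were Ptprc, Adgre1, Tyrobp and Csf1r, with no more than 5, 2, 2 and 17 counts in any library. Endothelial, adipocyte and Schwann cell lists had 0 called genes, with only 4 of 8, 2 of 7 and 2 of 6 genes tested. In the smooth muscle and pericyte list, which shares Des with the myogenic one, 5 of 5 genes tested fell. The part of these cell types in the results was not tested. Measurements on whole cultures cannot tell fewer cells of a type from less RNA per cell.

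When oxygen is plentiful, prolyl hydroxylases mark the alpha subunits of hypoxia-inducible factor (HIF) for destruction. When oxygen is low, or the hydroxylases are blocked, the factor pairs with ARNT and binds short DNA elements with the core ACGTG or GCGTG. Its targets change fuel use, and also acid handling, blood vessel growth, mitochondrial turnover and chromatin, the functions covered by these 9 genes. In skeletal muscle the response is best known from exercise, altitude and loss of blood supply.

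The promoters were examined for that core because 8 of the genes rose. RefSeq windows (GRCm38.p6) from 250 bases before to 50 bases after the start site were found for 7 of the 9, that is all but Ndrg1 and Bnip3l. Either core, on either strand, with overlapping matches counted separately, occurred in windows of Car9, Kdm3a, Bnip3, Ankrd37, Higd1a and Vegfa, and not in the window of Car12. By comparison, 46.7% of all 27025 genes with a window had a match in at least 1, and 67.9% of the 10144 such genes tested here. The core ACGTG alone occurred in a window of 21.8% of all these genes and 29.5% of those tested. Kdm3a and Vegfa, also called, have more than a single window and their sequences are not printed. The sequences shown are those of the 4 called genes with a single window that holds ACGTG, followed by Car12, which was not called, with core matches in capitals and all sequences written along the gene's own strand.
Car9 (chr4:43506776-43507075, plus strand): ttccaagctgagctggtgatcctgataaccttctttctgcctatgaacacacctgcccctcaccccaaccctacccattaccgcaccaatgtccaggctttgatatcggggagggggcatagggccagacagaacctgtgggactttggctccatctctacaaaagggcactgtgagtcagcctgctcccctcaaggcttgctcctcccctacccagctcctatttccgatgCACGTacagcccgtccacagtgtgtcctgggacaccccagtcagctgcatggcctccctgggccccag
Bnip3 (chr7:138909457-138909756, minus strand): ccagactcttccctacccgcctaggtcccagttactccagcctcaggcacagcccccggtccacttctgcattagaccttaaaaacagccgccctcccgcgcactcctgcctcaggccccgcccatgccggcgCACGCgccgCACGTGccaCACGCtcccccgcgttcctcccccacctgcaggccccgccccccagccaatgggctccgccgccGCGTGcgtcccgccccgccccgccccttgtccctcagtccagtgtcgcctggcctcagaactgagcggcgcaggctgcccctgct
Ankrd37 (chr8:45999801-46000100, minus strand): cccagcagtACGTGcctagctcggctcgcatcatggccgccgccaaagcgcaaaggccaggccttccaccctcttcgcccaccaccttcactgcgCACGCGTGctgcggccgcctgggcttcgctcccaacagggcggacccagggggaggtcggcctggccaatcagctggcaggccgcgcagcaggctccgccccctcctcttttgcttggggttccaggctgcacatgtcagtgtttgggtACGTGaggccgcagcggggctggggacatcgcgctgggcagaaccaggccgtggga
Higd1a (chr9:121857747-121858046, minus strand): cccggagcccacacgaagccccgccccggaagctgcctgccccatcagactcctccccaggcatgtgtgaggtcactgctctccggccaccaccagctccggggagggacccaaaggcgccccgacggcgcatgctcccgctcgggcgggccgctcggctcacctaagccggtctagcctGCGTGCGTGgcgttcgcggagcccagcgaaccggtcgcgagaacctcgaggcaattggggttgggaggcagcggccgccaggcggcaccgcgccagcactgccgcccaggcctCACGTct
Car12 (chr9:66713436-66713735, plus strand): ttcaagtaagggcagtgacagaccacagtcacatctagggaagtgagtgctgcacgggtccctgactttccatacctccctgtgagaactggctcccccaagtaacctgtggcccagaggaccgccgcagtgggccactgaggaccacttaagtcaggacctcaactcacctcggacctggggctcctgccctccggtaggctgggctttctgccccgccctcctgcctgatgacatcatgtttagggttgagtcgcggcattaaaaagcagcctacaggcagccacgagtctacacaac

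In Car9 the single match read from the opposite strand and lay 18 to 14 bases before the start site. Bnip3 had 5 matches, among them the palindrome CACGTG, which reads ACGTG on both strands and covers bases 108 to 103 before the start. The window of Ankrd37 held 4 matches, of which 1 ACGTG ended 2 bases before the start, and that of Higd1a held 3, of which the ACGTG lay 44 to 48 bases after it. At least 3 matches were present in 10.2% of all genes with a window and 19.1% of those tested. Kdm3a had 1 GCGTG in 1 of its 3 windows. Vegfa had none in the window at its first start site and 2 in the window of an internal start. Start sites here are those of RefSeq. In another annotation, GENCODE M21, the windows of Ankrd37 and Higd1a lie wholly inside the gene. The Car9 match also lies downstream of the start of Car9 in that annotation. These matches describe letters in a window. Binding was not measured.

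The rise of the 8 genes was larger than the spread between libraries by edgeR's quasi-likelihood test, at a Benjamini-Hochberg adjusted p under 0.05 over all 13714 genes tested. In that test 15.6% of genes were higher and 20.8% lower, against 8 higher and 0 lower of the 9. DESeq2 also called 8 higher and 0 lower, and no member was lower at an unadjusted p under 0.05 in edgeR. Their median log2 fold change was 1.02, against -0.03 for all genes tested. For 8 of the 9, every BAPN library lay above every control library, which held for 22.5% of genes tested, and for none of the 9 was every BAPN library below, which held for 28.6%. A rise of at least 2-fold was seen for 5 of the 9 and for 3.97% of genes tested. The 9 genes were chosen with earlier results of these data known, so these comparisons with all genes describe the set and do not test it.

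**Figure D1:**
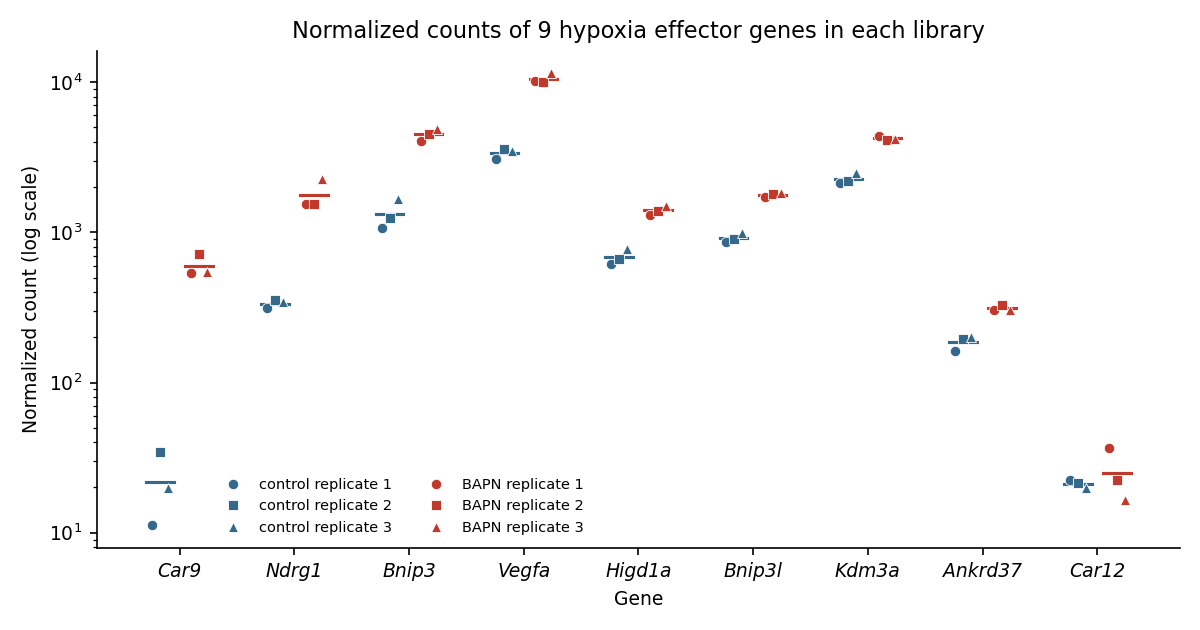
Normalized counts (log axis) of the 9 genes in each of the 6 libraries, with control in blue and BAPN in red, a symbol for each replicate number and a bar at the group mean. For 8 genes the 3 red points lie above the 3 blue ones, and for Car12 they overlap.

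Among the genes of acid and carbon dioxide handling, Car9 and Car12 encode membrane carbonic anhydrases whose catalytic domain faces outward and which convert carbon dioxide and water to bicarbonate and protons. Car9 (chromosome 4, 43506966 to 43513729, GRCm38) had normalized counts of 537, 712.5 and 548 in BAPN replicates 1 to 3. In the controls it had 11.2, 34.6 and 19.9, from raw counts of 11, 34 and 18. The groups did not overlap, and the controls, at few counts, had a coefficient of variation of 53.9%. The log2 fold change was 4.76 (SE 0.28, adjusted p = 8.4e-05 in edgeR), rank 5 of all genes tested.

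Car12 (chromosome 9, 66713686 to 66766845) had 36.5, 22.4 and 16.6 with BAPN and 22.4, 21.3 and 19.9 without. One BAPN library lay above the controls, 1 among them and 1 below, so the groups overlapped. Its log2 fold change of 0.25 (SE 0.31) was not called (adjusted p = 0.56 in edgeR). The 95% interval of its fold change, 0.723 to 1.96, at raw counts of 16 to 39 a library, holds the estimates of some called members. These were Ankrd37, Kdm3a and Bnip3l, with fold changes of 1.69, 1.865 and 1.929. Without BAPN replicate 1 the log2 fold change of Car12 was -0.12. Within a library, the log2 ratio of Car9 to Car12 counts averaged 4.61 ± 0.65 (SD, n = 3) in treated and -0.10 ± 0.83 in untreated cells. The difference of 4.71 had an exact 2-sided permutation p of 0.10, the smallest that 3 against 3 libraries can give.

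Vegfa (chromosome 17, 46016993 to 46032369) encodes vascular endothelial growth factor A, the secreted signal for blood vessel growth. Its normalized counts were 10196, 10004 and 11451 with BAPN and 3079, 3598 and 3507 without, so the lowest BAPN library was well above the highest control. The log2 fold change was 1.64 (SE 0.09, adjusted p = 6.1e-05 in edgeR), a 3.11-fold rise with similar scatter in both groups. Vegfb, a relative known more for fat transport and vessel survival than for hypoxia, also rose, with a log2 value of 0.52 (SE 0.08, adjusted p = 0.0021 in edgeR). The log2 ratio of Vegfa to Vegfb was 2.92, 2.69 and 2.95 with BAPN and 1.62, 1.89 and 1.69 without. These ratios did not overlap between groups, and the difference of 1.12 again had the smallest possible exact permutation p, 0.10 (2-sided, n = 3 each).

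Ndrg1 (chromosome 15, 66929318 to 66969640) encodes a cytoplasmic protein induced by hypoxia, metal chelation and differentiation. Normalized counts were 1537, 1551 and 2252 with BAPN, against 312, 354 and 342 without. BAPN replicate 3 was the highest by a wide margin, and the controls were close together. The log2 fold change was 2.41 (SE 0.16, adjusted p = 0.00012 in edgeR), or 2.20 without BAPN replicate 3, and Ndrg1 was the member with the second largest rise.

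Bnip3 and Bnip3l encode related proteins of the outer mitochondrial membrane that bind LC3-type proteins and mark mitochondria for removal by autophagy. Bnip3 (chromosome 7, 138890836 to 138909519) had 4071, 4526 and 4869 with BAPN and 1064, 1239 and 1679 in controls. Control replicate 3 was the highest control, yet well below the lowest BAPN library. The log2 fold change was 1.76 (SE 0.16, adjusted p = 0.00033 in edgeR), and 1.96 without control replicate 3.

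Bnip3l (chromosome 14, 66985239 to 67008877), also called Nix, had 1721, 1797 and 1819 with BAPN and 865, 906 and 996 without. This was a tight and nearly 2-fold rise, with a log2 fold change of 0.95 (SE 0.07, adjusted p = 0.00017 in edgeR). The log2 ratio of Bnip3 to Bnip3l was 1.24, 1.33 and 1.42 with BAPN and 0.30, 0.45 and 0.75 without. The mean ratio was 0.83 higher with BAPN and the groups did not overlap (exact 2-sided permutation p = 0.10, the smallest possible with n = 3 each).

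**Figure D2:**
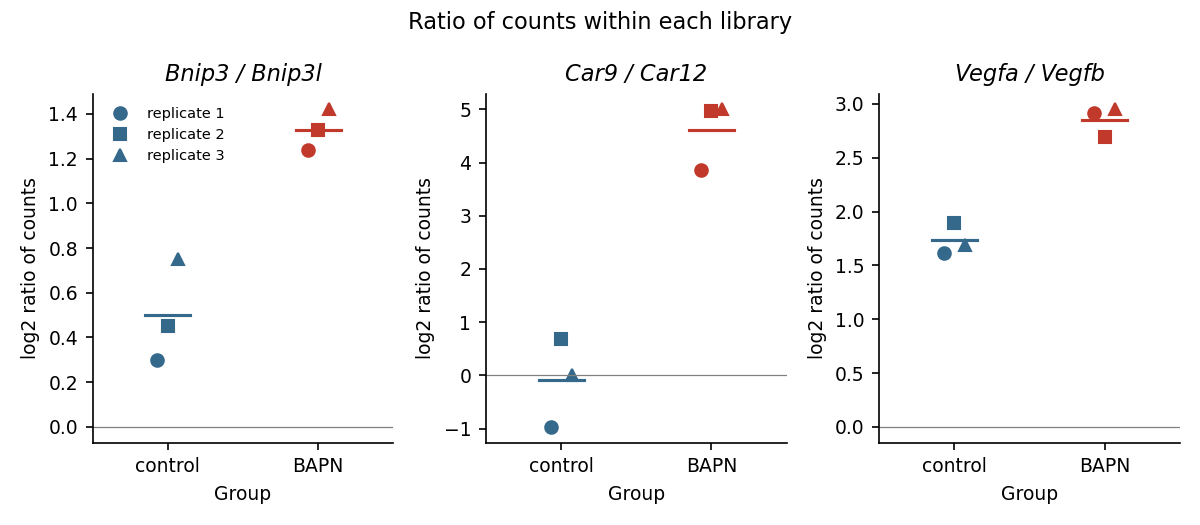
Log2 ratio of the counts of 2 genes within each library (Bnip3 to Bnip3l, Car9 to Car12, Vegfa to Vegfb), with controls in blue, BAPN in red and bars at the means. In each panel the 3 BAPN ratios lie above the 3 control ratios, by 0.83, 4.71 and 1.12 on average.

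Higd1a (chromosome 9, 121848563 to 121858362) encodes a small protein of the inner mitochondrial membrane that acts on the respiratory chain. It had 1307.5, 1385 and 1505 with BAPN and 619.5, 666 and 778 without. All BAPN libraries were above all controls, with a log2 fold change of 1.02 (SE 0.10, adjusted p = 0.00037 in edgeR).

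Kdm3a (chromosome 6, 71588972 to 71632990) encodes a histone demethylase that removes methyl groups from lysine 9 of histone H3 and needs oxygen itself. It had 4392, 4152 and 4155 with BAPN and 2121, 2188 and 2500.3 without. The groups were well apart, and the log2 fold change was 0.90 (SE 0.08, adjusted p = 0.00025 in edgeR). Ankrd37 (chromosome 8, 45996902 to 46005707), which encodes a small ankyrin repeat protein known as a HIF target, had 305, 330 and 305 with BAPN and 161, 194 and 201 without. It had the smallest rise among the called members, a log2 fold change of 0.76 (SE 0.11, adjusted p = 0.0020 in edgeR).

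**Figure D3:**
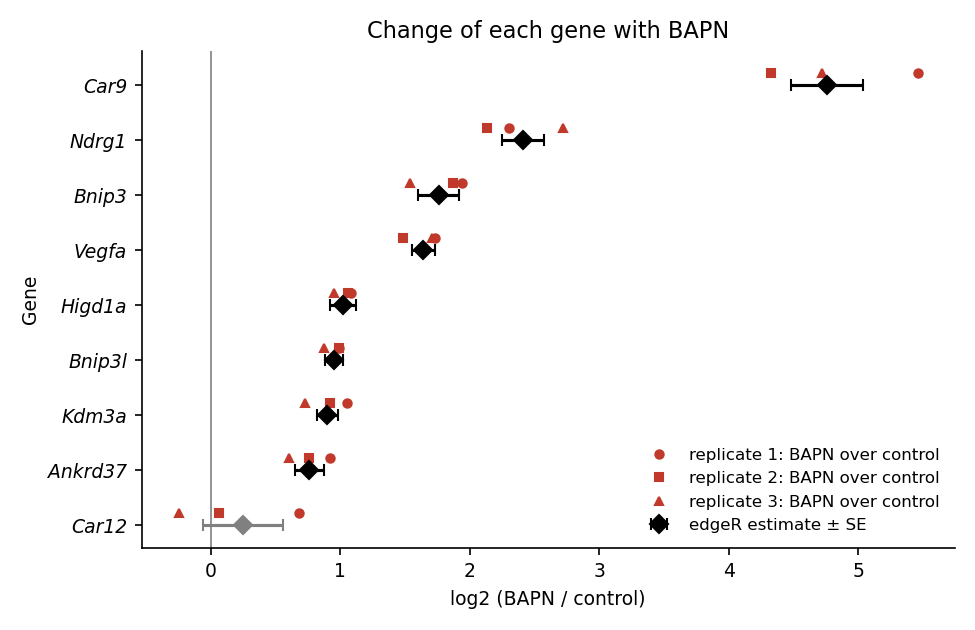
Log2 ratio of BAPN to control for the 9 genes. Diamonds give the edgeR estimate with its standard error (grey for Car12, not called) and red symbols the ratio of same-numbered libraries. The estimates run from 0.25 for Car12 to 4.76 for Car9, and Car12 is the gene whose ratios fall on both sides of 0.

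The authors' deposited table gives fold changes of 28 for Car9, 5.2 for Ndrg1, 3.4 for Bnip3, 3.1 for Vegfa, 2 for Higd1a, 1.9 for Bnip3l and Kdm3a, 1.7 for Ankrd37 and 1.2 for Car12. Its adjusted p for Car12 is 0.795.

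Counts cover whole genes, so levels of different genes were compared per kb of annotated exon (GENCODE M21), joined over all transcripts of a gene. That scale assumes even coverage along transcripts and that all the annotated exons are in use. On that scale the control order was Vegfa at 792 ± 64.7, Bnip3 at 586 ± 140.0, Kdm3a at 276 ± 24.6, Bnip3l at 239 ± 17.4, Higd1a at 226 ± 26.9, Ankrd37 at 120.5 ± 13.9, Ndrg1 at 50.9 ± 3.27, Car9 at 9.50 ± 5.12 and Car12 at 2.79 ± 0.17 normalized counts per kb (SD, n = 3). Libraries of neighbours in that order overlapped for Vegfa and Bnip3, Kdm3a and Bnip3l, and Bnip3l and Higd1a. With BAPN, Vegfa stood at 2462 ± 183 and Bnip3 at 1982 ± 177, and no longer overlapped. Ndrg1, at 269.8 ± 62.0, and Car9, at 260.0 ± 42.7, overlapped with each other and had both moved above Ankrd37, at 203.5 ± 9.27. Car12 was the lowest in both groups, at 3.31 ± 1.35 with BAPN.

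**Figure D4:**
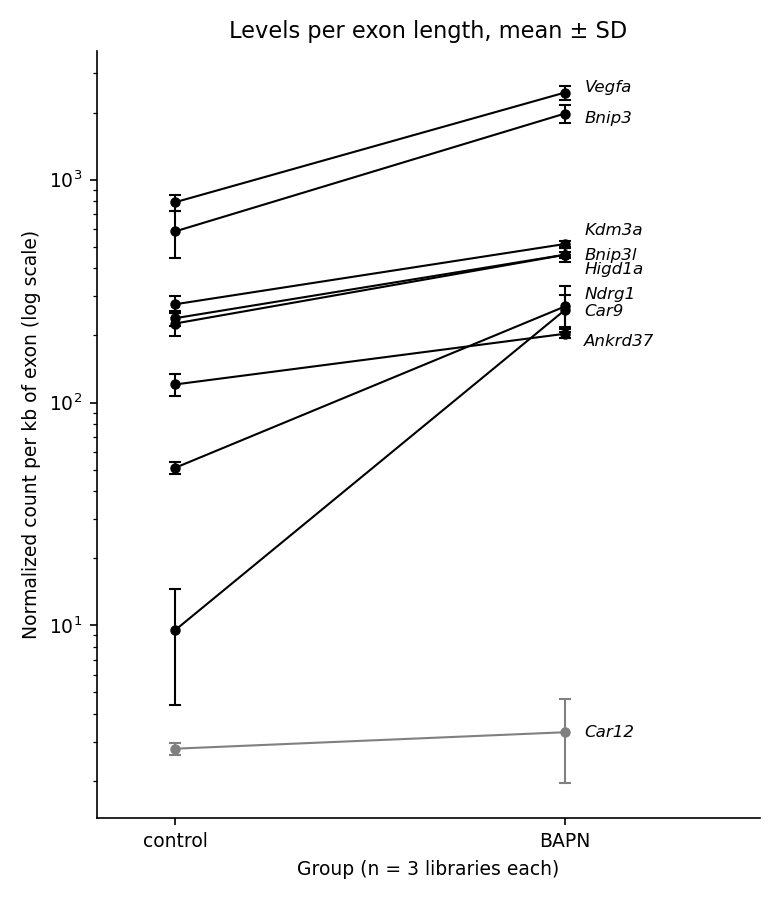
Normalized count per kb of exon (log axis, mean ± SD, n = 3 libraries a group) for each gene in control and BAPN. The line of Car9 climbs from 9.50 to 260.0 and that of Ndrg1 from 50.9 to 269.8, both passing Ankrd37, and Car12 (grey) stays lowest.

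Ratios of same-numbered libraries had medians over the 9 genes of 1.08, 1.06 and 0.95 on the log2 scale for replicates 1, 2 and 3. Of the 8 called genes, 7 had a smaller ratio in replicate 3 than in replicate 1, as did 48.6% of all genes called higher. Ndrg1 went the other way, with ratios of 2.30, 2.13 and 2.72. In controls, replicate 1 had the lowest value for 8 of the 9 genes, a pattern found in 26.9% of genes tested. Replicate 3 had the highest control value for 5 of the 9, against 40.8% of genes tested. These comparisons are descriptions without a test.

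By likeness of profile (root mean square difference over the 6 libraries of log2 normalized counts centred on the control mean), Bnip3l and Kdm3a were the closest pair of members, at 0.063. Higd1a lay 0.077 from Bnip3l, and Vegfa and Bnip3 lay 0.194 apart. Car9 was farthest from any other, at 1.80 from Ndrg1. For every member, some gene outside the set lay closer than any other member did. The nearest member's rank among all genes tested ran from 2 for Higd1a to 10144 for Car12. It was 4 for Bnip3l, 5 for Kdm3a, 8 for Bnip3 and 22 for Vegfa. The 5 genes outside the set nearest to the members' mean profile were Nt5e, Tm7sf2, Ndrg2, Lrp8 and Pfkp, at 0.107 to 0.136, of which Nt5e had only 5 to 24 raw counts a library. They encode an ecto-enzyme that makes adenosine (Nt5e), a sterol reductase (Tm7sf2), a relative of Ndrg1 (Ndrg2), a lipoprotein receptor (Lrp8) and the platelet form of phosphofructokinase (Pfkp).

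Relatives of the members were taken from lists by family. Of 16 carbonic anhydrases and acid-base transporters tested beside the members, 8 rose and 4 fell, with a median log2 fold change of 0.31, where 15.6% of all genes tested rose and 20.8% fell. Slc16a3, the lactate exporter MCT4, rose from 1753 ± 509 to 4508 ± 176 normalized counts (log2 fold change 1.36, adjusted p = 0.0012 in edgeR), and Car8, a catalytically inactive relative, from 37.5 ± 6.01 to 147 ± 27.6 (1.96, adjusted p = 0.00050 in edgeR). The anion exchanger Slc4a3 fell (-0.77, adjusted p = 0.00022 in edgeR), as did Slc4a2, Car2 and Car5b, with log2 values of -0.24, -0.83 and -0.58 (adjusted p = 0.0092, 0.038 and 0.022 in edgeR). Of the 8 that rose, Car6 had the largest log2 fold change, 4.47 (adjusted p = 0.017 in edgeR). Its raw counts were few, at 14, 11 and 54 with BAPN and 0, 1 and 2 without. Car6, Slc4a2, Car2 and Car5b were named after their values were seen. Leaving out replicate 2 of either group gave 5 that rose, and leaving out replicate 1 of either group gave 2 that fell. With replicates 1 and 2 summed, 2 rose and 1 fell.

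Of 8 VEGF family ligands and receptors tested, 3 rose and 0 fell, with a median of 0.40. Over all genes tested, 15.6% rose and 20.8% fell. Nrp2 lost its call when BAPN replicate 1 or 2 was dropped or replicates 1 and 2 were summed. Placental growth factor, Pgf, rose from 204 ± 20.7 to 508 ± 55.0 (log2 fold change 1.32, adjusted p = 0.00031 in edgeR), and the coreceptor Nrp2 by 0.50 (adjusted p = 0.018 in edgeR). The receptors Flt1 and Kdr, named after their values were seen, had mean normalized counts of 25.1 and 24.0 with BAPN and 19.5 and 18.5 without, and were not called (adjusted p = 0.25 and 0.26 in edgeR). All 3 relatives of Ndrg1 were called higher, but Ndrg3 lost its call when replicate 1 or 2 of either group was dropped and when replicates 1 and 2 were summed into 1 library a group. Ndrg2 went from 580 ± 54.4 to 1836 ± 211, Ndrg4 from 2969 ± 167 to 5672 ± 787 and Ndrg3 from 553 ± 27.4 to 729 ± 98.7, which are log2 values of 1.66, 0.93 and 0.40 (adjusted p = 9.7e-05, 0.00074 and 0.021 in edgeR).

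Of 24 other mitophagy receptors and autophagy genes, 7 rose and 6 fell, with a median of -0.06, against 15.6% higher and 20.8% lower over all genes tested. Sqstm1, the cargo receptor p62, rose (log2 fold change 1.17, adjusted p = 0.0029 in edgeR) with BAPN libraries that differed widely, 25010 ± 7780 against 11132 ± 228 in controls. Map1lc3b, an LC3 gene, rose and the mitochondrial phosphatase Pgam5 fell, with log2 values of 0.33 and -0.49 (adjusted p = 0.0050 and 0.0021 in edgeR). Leaving out replicate 1 of either group, or BAPN replicate 2, gave 4 that rose. The count of genes that fell was 2 and 1 when BAPN replicates 1 and 2 in turn were dropped, 3 when control replicate 1 or 2 was dropped, 3 under TMM or median-ratio scaling and 2 in DESeq2. With replicates 1 and 2 summed, 2 rose and 1 fell.

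Of 19 further Jumonji demethylases, 10 rose and 1 fell, against 15.6% and 20.8% of all genes tested. The list had a median of 0.32 and no rise of 2-fold or more, and 3 rose with replicates 1 and 2 summed. Kdm4b, a demethylase of histone H3 lysine 9 that is itself known as a HIF target, rose by 0.75, Jmjd1c, a relative of Kdm3a, by 0.65 and Kdm2a by 0.50 (adjusted p = 0.0017, 0.00075 and 0.00079 in edgeR). Kdm3b, a close relative of Kdm3a, was at 1751 with BAPN and 1679 without and was not called (log2 fold change 0.06, adjusted p = 0.46 in edgeR). The gene that fell, Kdm4c (-0.24, adjusted p = 0.026 in edgeR), was no longer called when BAPN replicate 1 or 2 or any control was dropped, or under TMM scaling. Kdm3b and Kdm4c were named after their values were seen. Among relatives of Higd1a and hypoxia-linked respiratory genes, Higd2a was at 1033 with BAPN and 1054 without and was not called (adjusted p = 0.75 in edgeR), the mitochondrial protease Lonp1 rose by 1.22 (adjusted p = 0.00041 in edgeR), and Ndufa4l2, a hypoxia-induced relative of the respiratory subunit Ndufa4, had raw counts of 41, 36 and 22 with BAPN and 1, 1 and 5 without. Higd2a was named after its values were seen. Ndufa4 itself was at 4608 ± 22.6 against 5195 ± 33.3 (log2 fold change -0.17, adjusted p = 0.033 in edgeR), a call that was lost when replicate 1 or 2 of either group was dropped, under TMM scaling and in DESeq2.

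Of 38 other hypoxia-inducible genes outside glycolysis, 27 rose and 0 fell, 16 of them at least 2-fold, with a median log2 fold change of 0.93. The count that fell was 1 in DESeq2, with the replicate block, when control replicate 3 was dropped and without both libraries of replicate 3. Over all genes tested, 15.6% rose, 20.8% fell and 3.97% rose at least 2-fold, as background for the lists in this paragraph. The lists, like the members, were chosen with earlier results of these data known. The peptide hormone gene Adm rose from 56.1 ± 12.3 to 596.5 ± 49.4, the MYC antagonist Mxi1 from 244.5 ± 7.99 to 1056 ± 76.2 and Fam162a, a mitochondrial protein, from 2208 ± 141 to 5691 ± 159 (log2 fold changes 3.40, 2.11 and 1.37, adjusted p = 3.0e-05, 2.1e-05 and 4.6e-05 in edgeR). Of 20 glycolysis genes, 17 rose and 1, Pfkm, fell, with a median of 0.65, and with replicates 1 and 2 summed 10 rose and 0 fell. The glucose transporter Slc2a1 and the glycolytic enzymes Pfkp and Pgam1 rose by 2.29, 1.75 and 1.14 in log2 terms. Among 14 HIF subunits and oxygen-sensing genes tested, 9 rose and 1, Hif1an, fell, with a median of 0.37. The hydroxylases Egln1 and Egln3 rose by 1.80 and 1.78 (adjusted p = 2.4e-05 for each in edgeR) and the coactivator Ep300 by 0.52 (adjusted p = 0.0010 in edgeR), and the transcript of Hif1a, the HIF alpha subunit, rose by 0.29 (adjusted p = 0.010 in edgeR) and that of Epas1 by 1.08 (adjusted p = 0.0054 in edgeR). Pfkm, Hif1an, Hif1a and Epas1 were named after their values were seen. Pfkm lost its call when BAPN replicate 1 or 2 was dropped. The count of oxygen-sensing genes that fell was 4 when BAPN replicate 3 was dropped, 5 without both libraries of replicate 3, 2 with a replicate block and 0 with replicates 1 and 2 summed, where 4 rose.

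**Figure D5:**
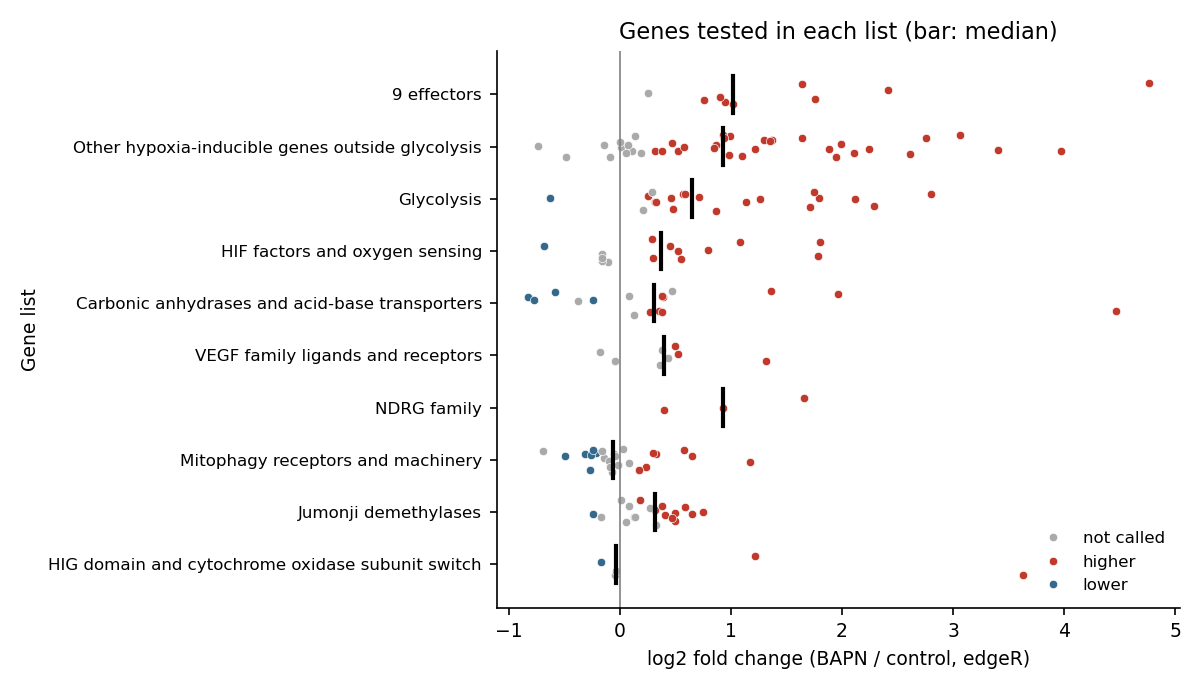
Log2 fold change (BAPN over control, edgeR) of each gene tested in the 9 effectors and 9 related lists, with red for higher, blue for lower, grey for not called and a bar at the list median. Points of the effectors and of other hypoxia-inducible genes lie mostly to the right of 0 (medians 1.02 and 0.93), and those of the mitophagy list lie on both sides (-0.06).

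Some members share sequence with other annotated genes, and no strand setting is given in the sources used here. By GENCODE M21, Ankrd37 shares 22.7% of its exon length with Lrp2bp on the opposite strand, which had 146 counts in the 6 libraries together, and 3.7% with Ufsp2 (4860 counts). Bnip3 shares 22.3% with the antisense gene Gm45507 (36 counts) and Car9 9.3% with Gm12454 (78 counts). Parts of Higd1a (22.5%) and Ndrg1 (6.4% and 2.1%) lie opposite Gm47112, Gm17035 and Gm2895, which were not analysed here. Near copies with at least 95% identity over at least 60 bases were found for Bnip3 (Gm16439 and Gm9419, 21 and 31 counts) and Bnip3l (Bnip3l-ps, 31 counts). Car9 shares a stretch of 63 bases with Taf1 (8190 counts), and copies of Bnip3 and Higd1a (AC160336.1, Gm6532 and Gm9790) were not analysed here. Reads of these genes may be shared with them.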

How the data were processed

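RNA was sequenced as single reads of 60 nt in 1 lane, from libraries made in-house, per the labels' protocols. The RNA integrity number exceeded 8.1 in most samples but was below 7.5 in 2 that are not identified. Whether RNA quality differed between the groups is therefore not known, and its part in the results could not be checked. The submitters' processing notes name cutadapt, STAR, HTSeq and DESeq2 with GRCm38 (mm10), with versions and roles not given in the sources used here. The authors deposited raw counts per gene symbol and normalized counts, a signal equal to the count divided by 1 size factor per library. The authors also deposited a comparison with log2 fold changes, signed fold changes (a score below 0 where lower with BAPN), p-values and adjusted p-values.

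Groups and replicate numbers came from the labels. Raw counts of the 13714 genes whose normalized counts averaged 10 or more were fitted in edgeR 4.0.16 (R 4.3.3, glmQLFit and glmQLFTest), with the authors' size factors as scaling, no block, Benjamini-Hochberg adjustment over all genes and calls under 0.05. Standard errors and 95% intervals derive from the F statistic. Ratios used counts plus 0.5 and exact permutation tests. The fit was tested on simulated data. Alternatives were other scalings, DESeq2 1.42.0, limma 3.58.1 (limma-trend on log2 of the normalized count plus 1), other filters, a replicate block and fewer libraries. The members and lists were chosen with earlier results of these data known. From each related list the 3 genes with the smallest p were named, or all in a list of 5 or fewer, and genes named beyond that rule are marked. Positions are from GENCODE M21.

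Pairing was checked from the data, since titles share replicate numbers. After group means were subtracted, libraries with the same number correlated across genes at 0.184, 0.190 and 0.366, over 0.1 in each. The numbers entered as a block in an alternative fit, and the main fit had no block. The crossed pairs of replicates 1 and 2 gave 0.230 (BAPN 1 with control 2) and 0.105 (BAPN 2 with control 1), so these values set replicate 3 apart but do not tell replicates 1 and 2 from each other. Replicates 1 and 2 were close but differed by more than counting noise (chi-square per degree of freedom 2.10 with BAPN and 2.28 in controls, against 19.7 to 22.0 for pairs with replicate 3). They were kept as separate libraries, so p-values reflect only the scatter among these libraries, which may be technical.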

Additional observations from a re-analysis of the deposited data

How the results depend on the processing

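In all 16 alternative fits the same 8 members were called higher and 0 of the 9 lower, with the highest adjusted p of each between 0.0037 (Car9) and 0.035 (Ankrd37), reached where replicates 1 and 2 were summed. Car12 was called in none of the 15 that tested it, and its estimate of 0.25 became -0.12 without BAPN replicate 1 and 0.47 without BAPN replicate 3 (adjusted p = 0.79 and 0.22, the ends of its range over the alternatives in edgeR). It was not tested with a mean count of at least 100. With the replicate block, 8 members were higher and 2791 of all genes were higher and 3711 lower, and no member's call changed. The 3 within-library ratios kept their direction. They ranged from 0.73 to 0.96 for Bnip3 to Bnip3l, 4.27 to 5.09 for Car9 to Car12 and 1.06 to 1.20 for Vegfa to Vegfb with 1 library left out. Over all genes, 716 were higher and 809 lower with replicates 1 and 2 summed, and 3224 higher and 4253 lower without both libraries of replicate 3. With 1 library left out, between 1449 and 2318 genes were higher and between 1866 and 3120 lower. The share of calls that were higher was 42.9% with the authors' size factors and 50.7% with TMM scaling. Depth limits Car12 in all libraries and Car9 in controls, where these genes had 11 to 39 raw counts a library.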
